A study of Mus musculus with 3 samples.

Results

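The 9 genes described here are Cdkn1c, Grb10, Plagl1, H19, Dlk1, Meg3, Mest, Peg3 and Ndn, a set of imprinted growth genes of the mouse. They are a list of names, chosen with earlier results of these data known, and all 9 were found among the 17829 gene symbols that the 3 count tables share. The tables come from wild-type mouse kidney at E14.5, a day in mid-gestation when nephrons are forming, and the labels name no treatment. The animals were of a mixed strain background, mainly CD-1 with 129. Single cells were profiled in 1 library each by Drop-seq, 10x Chromium and Fluidigm C1, so no platform has a replicate library. Drop-seq and 10x capture cells in droplets and count transcripts by molecular identifiers (UMIs). C1 captures cells in the chambers of a chip, and its values are read counts.

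Imprinted genes are expressed mainly from the copy inherited from one parent, and many of them set the pace of fetal growth. Genes expressed from the maternal copy, such as Cdkn1c, H19, Grb10 and Meg3, tend to restrain growth, while genes expressed from the paternal copy, such as Dlk1, Mest, Peg3 and the neighbour of H19, Igf2, tend to promote it. In humans, loss of CDKN1C function underlies cases of Beckwith-Wiedemann syndrome, an overgrowth disorder in which the kidney is often enlarged. The counts do not separate the parental copies, so none of the values below says which copy was read.

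Levels are given as CPM, which scale the counts of a gene by the summed counts of its class, over the shared genes without mitochondrial ones. Classes are groups of clusters named from marker genes, so that each name means cells that resemble that type. The members had no part in the clustering. The 5 classes found in every library were stroma, endothelium, ureteric epithelium (the branching duct), nephron epithelium and cap mesenchyme (the nephron progenitors). Filters kept 1964 Drop-seq cells with a median of 7060 UMIs, 2130 10x cells with a median of 7364.5 UMIs and 883 C1 cells with a median of 166712 reads. No barcode was shared between libraries. The C1 immune cluster of 49 cells also scored high for early nephron markers, and C1 gave no podocyte or distal tubule cluster. Markers of cap mesenchyme and of ureteric epithelium were highest in their own class in each library, and those of endothelium in Drop-seq and C1. In 10x a cluster of 15 cells left without a name exceeded the endothelium. The summed cap mesenchyme markers, for example, were at 389.7 (Drop-seq), 98.3 (10x) and 681 CPM (C1) in stroma, against 1337, 1715 and 2454 CPM in cap mesenchyme.

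Cdkn1c codes for p57, an inhibitor of cyclin-dependent kinases that holds cells out of division. Its gene lies at chr7:143458339-143461050 on the minus strand of GRCm38 in GENCODE vM21 (ENSMUSG00000037664.13). Of its exonic bases 30.7% lie opposite the antisense gene Gm44732, and since no source used here states the strand of counting, their reads cannot be told apart. In stroma it reached 1714 CPM in Drop-seq, 2576 CPM in 10x and 1075 CPM in C1, against 627, 883 and 486 CPM in cap mesenchyme. In endothelium, ureteric epithelium and nephron epithelium it stayed between 207 and 302 CPM in all 3 libraries, so that stroma was highest, cap mesenchyme followed and the other 3 classes were lower in every library. The C1 values average over 2 groups of cell names, HT and E14, which no source used here explains. HT and E14 cells had 387 and 129 CPM of Cdkn1c in nephron epithelium, and 380 and 148 CPM in endothelium. Between endothelium and nephron epithelium the counting intervals overlapped in Drop-seq and 10x, and the 10x interval of endothelium also overlapped that of ureteric epithelium. Podocytes, the filtering cells of the glomerulus, stood above the rest of the nephron. They had 1836 CPM in Drop-seq and 5955 CPM in 10x, against 302 and 285 CPM in nephron epithelium, which leaves podocytes out. The single cell with most Cdkn1c gave 12.2% of the 10x podocyte counts. After each cell was thinned to 4000 UMIs, 91.7% of 72 Drop-seq and 88.6% of 70 10x podocytes held a Cdkn1c UMI.

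Grb10 codes for an adaptor that dampens signalling from the insulin and IGF receptors. It lies at chr11:11930508-12038683 on the minus strand (ENSMUSG00000020176.17). Its order over the 5 classes was the same in every library, with cap mesenchyme highest, then endothelium, stroma, ureteric epithelium and nephron epithelium. In nephron epithelium it had 250.4 CPM in Drop-seq, 130.2 CPM in 10x and 253 CPM in C1, against 509, 308 and 715 CPM in cap mesenchyme. The range was narrow: the highest class exceeded the lowest 2.03-fold in Drop-seq, 2.37-fold in 10x and 2.83-fold in C1. Endothelium and stroma, and ureteric and nephron epithelium, overlapped in their counting intervals in Drop-seq and 10x, and stroma and ureteric epithelium in 10x.

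Plagl1 codes for a zinc-finger transcription factor, also called Zac1, that can arrest the cell cycle and is known to regulate other imprinted genes. It lies at chr10:13060504-13131694 on the plus strand (ENSMUSG00000019817.18). Endothelium had 92.1 CPM in Drop-seq, 112 CPM in 10x and 238 CPM in C1, and stroma 91.4, 184 and 274 CPM. Ureteric epithelium was intermediate with 45.1, 77.6 and 152 CPM, where 1 cell gave 47.7% of the C1 reads. Nephron epithelium had 10.5, 20.6 and 42.4 CPM and cap mesenchyme 12.7, 34.6 and 43.7 CPM. These 2 classes, progenitors and their epithelial progeny, were thus the lowest in all 3 libraries.

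H19 is a spliced RNA without a protein product that carries the microRNA Mir675 in its first exon. It lies at chr7:142575529-142578143 on the minus strand (ENSMUSG00000000031.16), and 880195 bases separate it from Cdkn1c. Its level was high in every class. Endothelium had 1462 CPM in Drop-seq, 934 CPM in 10x and 804 CPM in C1, stroma 1159, 1206.5 and 714 CPM, and cap mesenchyme 833, 605 and 387 CPM. The highest class exceeded the lowest by between 2.08-fold and 2.43-fold, and the order of the classes differed from library to library. Within the nephron epithelium, early nephron cells had 1179.6 CPM of H19 in Drop-seq, 737 CPM in 10x and 517 CPM in C1, against 302 and 208 CPM in distal tubule and loop cells of Drop-seq and 10x. Proximal tubule cells had 506, 764 and 487 CPM, so in 10x they were no lower than early nephron cells. Podocytes had 1928 CPM in Drop-seq and 1491 CPM in 10x.

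Dlk1 and Meg3 lie next to each other on chromosome 12. Dlk1, at chr12:109452823-109463336 (ENSMUSG00000040856.17), codes for a transmembrane protein related to Notch ligands that keeps precursor cells from differentiating. Meg3, at chr12:109541001-109571726 (ENSMUSG00000021268.17), is a long RNA without a protein product. Both are on the plus strand, 77664 bases apart. Of the member pairs these genes varied together most closely in stroma as a whole, though not within its nephrogenic zone. The 250 bases before their RefSeq starts are therefore shown (GRCm38.p6, plus strand, 5′ to 3′). They come from chr12:109452573-109452822 for Dlk1 and chr12:109540746-109540995 for the upstream start of Meg3. Capitals mark TGACG, the core of the cAMP response element, and TATAAA, on either strand.
Dlk1: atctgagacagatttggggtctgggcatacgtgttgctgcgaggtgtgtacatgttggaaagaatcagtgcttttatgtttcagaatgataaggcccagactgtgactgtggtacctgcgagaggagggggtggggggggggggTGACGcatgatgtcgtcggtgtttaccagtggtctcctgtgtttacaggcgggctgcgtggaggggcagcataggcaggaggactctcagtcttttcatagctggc
Meg3: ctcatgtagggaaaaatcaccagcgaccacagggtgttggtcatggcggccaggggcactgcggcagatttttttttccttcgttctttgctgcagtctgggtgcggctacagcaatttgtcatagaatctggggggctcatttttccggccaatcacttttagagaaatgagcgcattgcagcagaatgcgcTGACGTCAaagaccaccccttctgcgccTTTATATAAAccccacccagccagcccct

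The Meg3 window holds the full palindrome TGACGTCA, in which TGACG overlaps its own reverse complement, at 57 bases before the start, and TATAAA, on one strand and then the other, at 29 and 25 bases before it. Dlk1 holds a single TGACG at 106 bases before the start. Over 32851 such windows of all genes in the RefSeq table, TGACGTCA was present in 1.55%, TGACG in 17.8% and TATAAA in 12.4%, so the shorter motifs are common. The table has 11 windows of 7 members, and among them TGACGTCA was also in that of Peg3. GGGGCCCC, a sequence that the Plagl1 protein is known to bind, was in 0.889% of all windows and in the Peg3 window. CpG dinucleotides numbered 8 in the Dlk1 window and 10 in the Meg3 window, against a median of 6 over all windows.

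Both genes were highest in stroma among the 5 classes, by margins that differed between classes and libraries. Dlk1 had 294 CPM in Drop-seq, 590 CPM in 10x and 67.9 CPM in C1 stroma, against 11.6, 48.3 and 18.8 CPM in cap mesenchyme. Meg3 had 389, 1709 and 295 CPM in stroma, against 32.6, 141 and 111 CPM in cap mesenchyme. For Meg3 the second class in C1 was cap mesenchyme, which stroma exceeded only 2.66-fold. In 10x the second class was ureteric epithelium, above cap mesenchyme with separate intervals. In every library stroma was the highest of the 5 classes for both genes, and the lowest class was between 9.9-fold and 57.9-fold below it. Shares of cells followed the levels. After thinning to 4000 UMIs (50000 reads in C1), Meg3 was found in 58.5% of 357 Drop-seq, 89.0% of 726 10x and 82.3% of 368 C1 stromal cells, against 8.23% of 462, 18.1% of 199 and 42.9% of 163 cap mesenchyme cells. Dlk1 was found in 50.1%, 55.2% and 47.3% of the stromal cells, against 4.11%, 9.55% and 16.0% of the cap mesenchyme cells. Blood cells were taken to lack both genes, which was not tested. In 10x, 1 of 30 thinned immune cells held Meg3 and 0 of 30 held Dlk1, which allows a share of up to 10.0% (3 counts of the total). Their median depth was 4819.5 UMIs, against 6351.5 UMIs in stroma. In Drop-seq, 4.35% of 46 erythroid cells held Meg3 and 10.9% held Dlk1, at a median of 7197 UMIs against 6650.0 UMIs in stroma. In Drop-seq cap mesenchyme the share with Dlk1 was under that of erythroid cells, and the share with Meg3 lay within their exact 95% interval of 0.531% to 14.8%, so neither is read as expression. The Dlk1 share of 10x cap mesenchyme, 9.55%, was under the limit of the immune cells and is not read as expression either. That limit is set by the small number of immune cells. The Dlk1 level of 10x cap mesenchyme, 48.3 CPM, was above the 25.9 CPM of nephron epithelium, with separate intervals. The C1 immune cluster, with 42.6% and 23.4%, gives no measure of background. Before thinning, Meg3 was in 71.5%, 91.9% and 90.7% of stromal cells.

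Within stroma, a group of 68 10x cells carried both genes far above the others. This cluster held markers of nephrogenic-zone stroma (Sfrp1) and of other stroma (Postn, Ogn) among its leading genes and was therefore given no zone. It had 8397 CPM of Meg3, 3386 CPM of Dlk1, 5291 CPM of Cdkn1c and 591 CPM of Plagl1, against 1285, 239.7, 2529 and 106 CPM in other stroma of 10x. Over the members its ratio to other stroma ran from 1.51-fold for Grb10 to 14.1-fold for Dlk1. How many of all genes were higher in this cluster was not measured, so no trait particular to the members is read from it. Neural and neural crest markers summed to 155 CPM there, with 4 of 10 at 0, against 6.57 CPM in other stroma, with 6 of 10 at 0, and their part in these levels was not tested. All 6 adrenal cortex and all 6 skeletal muscle markers were at 0 in the cluster. No stromal cluster of Drop-seq reached such levels. Its 3 stromal clusters ran from 251 to 525 CPM of Meg3. In C1 the 2 largest stromal clusters had 669.5 and 270.1 CPM of Meg3, a cluster of 71 cells had 59.5 CPM, and a cluster of 73 cells with Ccnb1 and Rrm2, genes of division, among its leading genes had 34.2 CPM.

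**Figure D1:**
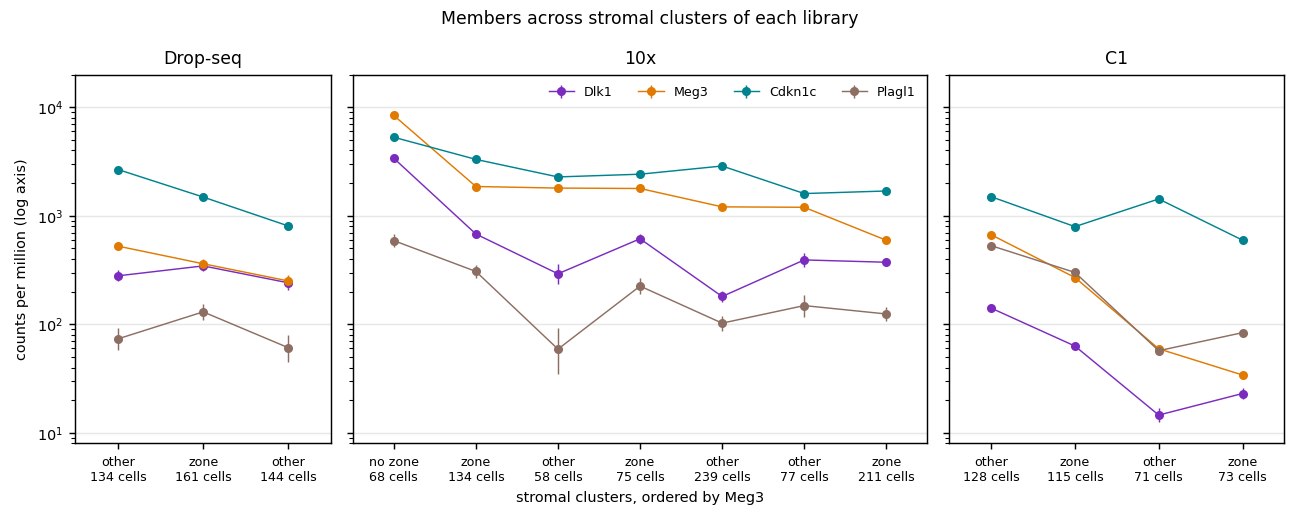
Level of 4 members, in CPM on a log axis, in each stromal cluster of the Drop-seq, 10x and C1 libraries, ordered from left to right by Meg3, with 95% Poisson intervals. "Zone" is nephrogenic-zone stroma, "other" is other stroma, and "no zone" is the 10x cluster of 68 cells, which is highest for all 4 genes within its library. Levels of different genes are not compared, since the read counts of C1 also depend on the length of a gene.

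Mest codes for an enzyme-like protein of the endoplasmic reticulum expressed through embryonic mesoderm. It lies at chr6:30723547-30748465 on the plus strand (ENSMUSG00000051855.15), and 23.1% of its exonic bases are shared with Copg2 on the opposite strand. As the strand of counting is not known, reads of Mest and Copg2 cannot be told apart there. The order of its 5 classes was the same in all 3 libraries, with no overlap of intervals between neighbours. Endothelium was highest with 2579 CPM in Drop-seq, 2613 CPM in 10x and 1714 CPM in C1, followed by stroma, cap mesenchyme and ureteric epithelium. Nephron epithelium was lowest with 369.8, 216 and 324 CPM. Mest was found in every thinned endothelial cell, 90 of Drop-seq, 330 of 10x and 73 of C1.

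Peg3, a zinc-finger gene, lies at chr7:6703892-6730431 on the minus strand (ENSMUSG00000002265.16). It had 510.2 CPM in Drop-seq, 425 CPM in 10x and 94.5 CPM in C1 stroma. Nephron epithelium was lowest with 145, 81.8 and 20.2 CPM, against 382, 364 and 99.1 CPM in cap mesenchyme. Ndn codes for necdin, a protein of the MAGE family that is best known from neurons, and lies at chr7:62346569-62350262 on the plus strand (ENSMUSG00000033585.5). It varied least of the 9 in Drop-seq and in C1 with its name groups pooled, while in 10x the range of H19 was narrower. Its highest class exceeded its lowest 1.74-fold in Drop-seq, 2.33-fold in 10x and 1.89-fold in C1, and in Drop-seq no neighbouring classes had separate intervals. Within neither C1 name group did Ndn vary least. In HT cells it ran from 100 to 207 CPM over the classes, and H19 from 444 to 668 CPM. In E14 cells Ndn ran from 36.7 to 123 CPM, and Grb10 from 232 to 687 CPM. In C1 the values of several members rest on few cells: the top cell gave 15.7% of Meg3 reads in cap mesenchyme, 27.2% in endothelium and 31.1% of Dlk1 reads in ureteric epithelium.

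**Figure D2:**
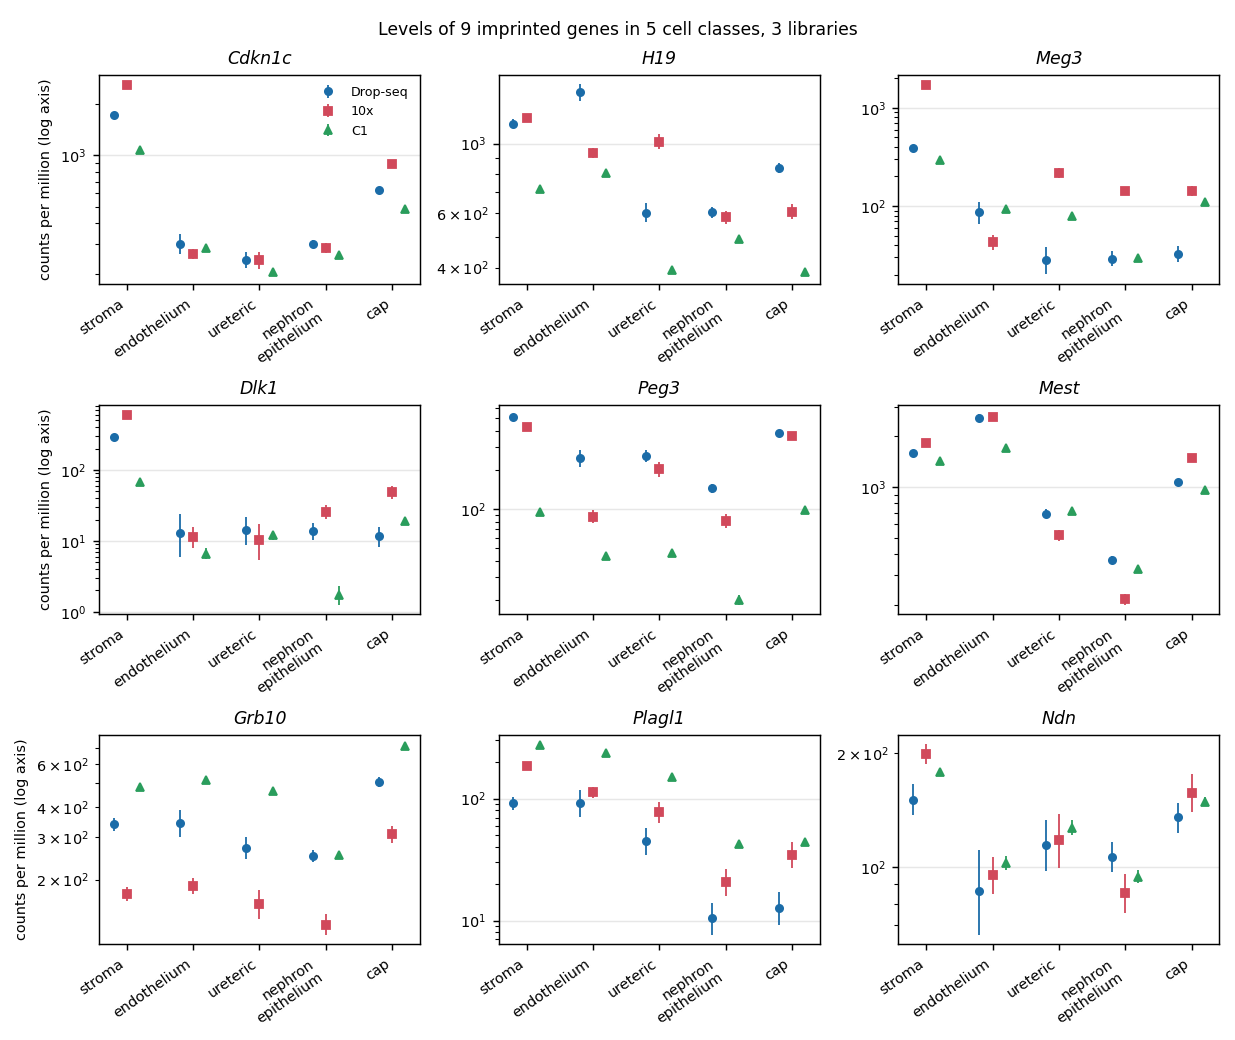
Level of each member, in CPM on a log axis, in the 5 classes found in every library, with 95% Poisson intervals that cover counting error only. Circles are Drop-seq, squares 10x and triangles C1. Cdkn1c, Dlk1 and Meg3 peak in stroma in all 3 libraries, Grb10 in cap mesenchyme and Mest in endothelium.

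Differences between classes were tested on counts summed per library and class, with the library as a block, by edgeR's quasi-likelihood test with Benjamini-Hochberg adjustment over all genes tested. For classes and zones the libraries are the replicates (n = 3). The block removes level differences between platforms, so the p-values rest on how far class differences disagree between libraries, pooled over all classes fitted. Since each library is of another platform, that disagreement also holds differences between platforms in the class differences. In stroma against cap mesenchyme, 5 of 9 members passed an adjusted p of 0.05, where 11.5% of 9173 genes did, 5.66% higher and 5.83% lower. Cdkn1c, Dlk1, Meg3 and Plagl1 rose and Grb10 fell. The log2 fold change was 1.38 ± 0.20 for Cdkn1c (SE, adjusted p = 0.00119), 3.18 ± 0.65 for Dlk1 (adjusted p = 0.0152), 2.79 ± 0.67 for Meg3 (adjusted p = 0.0316) and 2.63 ± 0.17 for Plagl1 (adjusted p = 2.21e-09). Grb10 fell by 0.69 ± 0.11 on the log2 scale (adjusted p = 0.000281). All 5 moved one way in 3 of 3 libraries, as did 8 of 9 members and 52.7% of all genes. H19, Mest, Ndn and Peg3 had 0.74, 0.44, 0.23 and 0.15 with adjusted p from 0.069 to 0.657. The tests left out the genes used to form the clusters, so the share of all genes called lacks many of those that vary most between classes.

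The calls of Dlk1 and Meg3 needed both droplet libraries. Without Drop-seq the log2 fold change was 2.75 for Dlk1 (adjusted p = 0.256, edgeR) and 2.56 for Meg3 (adjusted p = 0.313). Without 10x it was 2.91 for Dlk1 (adjusted p = 0.187) and 2.31 for Meg3 (adjusted p = 0.146). Cdkn1c had 1.36 without Drop-seq (adjusted p = 0.0656) and 1.39 with at least 1000 detected genes per cell (adjusted p = 0.0599), where Grb10 had -0.70 (adjusted p = 0.294). H19 passed under 6 alternatives: without Drop-seq, with no filter on low counts, with classes named by z score, at Leiden resolutions 0.6 and 1.6 and with no doublet removed. It had 0.74 to 0.92 in these, with adjusted p from 1.92e-11 to 0.0343. Mest passed without 10x with 0.54 (adjusted p = 0.0177) and with no filter (adjusted p = 0.00012). Leaving out the 68 10x cells of the cluster with no zone, an alternative chosen after seeing the data, kept 2.95 for Dlk1 (adjusted p = 0.0171) and 2.59 for Meg3 (adjusted p = 0.0345). Of 45 other imprinted genes tested, 13 rose and 2 fell in stroma. Sgce (4.35), Asb4 (3.62) and Peg10 (3.17), which lie in 1 imprinted domain of chromosome 6, rose, as did Dcn (4.75), Kcnq1 (4.26) and Airn (1.56) on the log2 scale. The fitted value of Kcnq1 exceeded the log2 ratio in every single library, the highest of which was 2.61. That list includes genes, such as Dcn, whose imprinting is known only in some tissues.

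In ureteric epithelium against cap mesenchyme, 4 of 9 members were called, where 15.3% of all genes were, 7.67% higher and 7.65% lower. The log2 ratio had one sign in all 3 libraries for 6 members and 48.3% of all genes. Plagl1 rose by 1.58 ± 0.18 on the log2 scale (SE, adjusted p = 2.62e-06), with log2 ratios of 1.75 (Drop-seq), 1.04 (10x) and 1.79 (C1). The size of the C1 ratio rests in large part on 1 cell, which gave 61.0% of the ureteric Plagl1 reads of E14-named cells. E14-named cells had 229 CPM in ureteric epithelium against 37.3 CPM in cap mesenchyme, and HT-named cells 68.9 against 47.1 CPM. Cdkn1c fell by 1.54 ± 0.21 (adjusted p = 0.000514), Peg3 fell by 0.93 ± 0.19 (adjusted p = 0.00281) and Grb10 fell by 0.87 ± 0.11 (adjusted p = 1.8e-05, edgeR). Mest had -0.89 (adjusted p = 0.0612) and passed under DESeq2 (adjusted p = 0.0213). It also passed without 10x with -0.54 (adjusted p = 0.011), at Leiden resolution 0.6 with -0.99 (adjusted p = 0.0297) and with no filter (adjusted p = 3e-18). With at least 1000 detected genes, Peg3 had -0.996 (adjusted p = 0.105) and Grb10 -0.93 (adjusted p = 0.133). Without C1 Dlk1 had -1.22 (adjusted p = 0.0484) and Ndn -0.45 (adjusted p = 0.0447). H19, Meg3 and Dlk1 differed in sign between libraries. Of the other imprinted genes, 10 rose and 4 fell, with fitted log2 fold changes of 7.40 for Kcnq1, a potassium channel subunit, 4.68 for Slc22a18, 3.57 for Sgce, 3.03 for Ampd3, 2.64 for Asb4 and -1.43 for Peg12. Kcnq1 again exceeded its single-library log2 ratios, of 4.42 to 6.11.

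In nephron epithelium against cap mesenchyme, the 5 members called all fell, where 5.31% of all genes were called lower, 6.72% higher and 12.0% in either direction. Peg3 fell by 1.95 ± 0.19 on the log2 scale (SE, adjusted p = 4.38e-06), Mest fell by 1.92 ± 0.28 (adjusted p = 0.00224) and Grb10 fell by 1.25 ± 0.11 (adjusted p = 3.14e-07). Cdkn1c fell by 1.18 ± 0.21 (adjusted p = 0.00281) and Ndn fell by 0.61 ± 0.12 (adjusted p = 0.00194, edgeR). Each was lower in 3 of 3 libraries. One sign in all 3 was shown by 6 members and 49.4% of all genes. Without Drop-seq, Mest had -2.11 (adjusted p = 0.074) and Cdkn1c -1.24 (adjusted p = 0.076). Mest had -1.47 with no doublet removed (adjusted p = 0.0637), and Cdkn1c -0.81 at Leiden resolution 1.6 (adjusted p = 0.0566). With at least 1000 detected genes the adjusted p was 0.0889 for Cdkn1c, 0.132 for Ndn and 0.0521 for Grb10, and with the C1 name groups as 2 libraries it was 0.0546 for Ndn. The 4 members not called had -1.51 (Dlk1), -0.80 (Meg3), -0.25 (Plagl1) and -0.04 (H19). For Dlk1 the 95% interval ran from -3.18 to 0.16, so a large fall is within the error. With no filter on low counts Dlk1 and Meg3 passed, with -1.50 (adjusted p = 1.01e-13) and -0.79 (adjusted p = 3.73e-08). Of the other imprinted genes, 4 rose, among them Cobl (3.07), Sgce (2.81) and Pon2 (1.15), and 6 fell, among them Peg12 (-2.15), Usp29 (-2.09), a neighbour of Peg3, and Nnat (-1.38). Usp29 had a log2 ratio of -0.27 in Drop-seq, against -2.06 and -2.41 in the other libraries.

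In endothelium against stroma, 5 of 9 members fell and none rose, where 9.96% of all genes were called lower, 8.18% higher and 18.1% in either direction. The sign was the same in 3 libraries for 7 members and 50.7% of all genes. The log2 fold changes were -4.56 ± 0.76 for Dlk1 (SE, adjusted p = 0.00382), -3.00 ± 0.74 for Meg3 (adjusted p = 0.0238), -2.53 ± 0.22 for Cdkn1c (adjusted p = 8.72e-06), -1.41 ± 0.19 for Peg3 (adjusted p = 7.55e-05) and -0.83 ± 0.13 for Ndn (adjusted p = 7.88e-05, edgeR). Mest had 0.57, with an interval from -0.04 to 1.18 (adjusted p = 0.191). It passed without 10x, with 0.57 (adjusted p = 0.00827), and with no filter on low counts (adjusted p = 5.28e-08). Dlk1 missed the threshold without Drop-seq (-4.41, adjusted p = 0.0984) and without 10x (-3.86, adjusted p = 0.114), and so did Meg3 (-3.14, adjusted p = 0.193, and -1.96, adjusted p = 0.182). Of the other imprinted genes, 7 rose and 6 fell. Pon3 (3.15), Gatm (2.84), Kcnq1 (2.71) and Pon2 (2.58) rose, and Zim1 (-4.28), a neighbour of Peg3, and Dcn (-3.63) fell. All genes split into 750 higher and 914 lower calls with TMM scaling, and into 1012 higher and 762 lower with RLE size factors, under which 5 members were called too.

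Between the zones of stroma, 0 of 9 members passed in nephrogenic-zone stroma against other stroma by edgeR, where 4 of 8869 genes (0.0451%) passed in all, 0.0113% higher and 0.0338% lower. By DESeq2 0 of 9 passed too, where 13 of 8912 genes were higher and 16 lower. One sign in all 3 libraries was found for 5 members and 40.1% of all genes. At an unadjusted p under 0.05 in edgeR there were 915 of the 8869 genes and 1 member, Mest, with a log2 fold change of 0.94 ± 0.42 (SE, adjusted p = 0.473). Mest had 2309 CPM in Drop-seq, 2269 CPM in 10x and 1644 CPM in C1 in the nephrogenic zone, against 1171, 1118 and 1187 CPM in other stroma, and was higher in the zone in each. Plagl1 had 130.4, 193 and 209 CPM in the zone, against 68.0, 106 and 345 CPM in other stroma. It was higher in the zone in both droplet libraries and lower in C1, and without C1 it passed with 0.88 (adjusted p = 0.00292). Among the other imprinted genes only Asb4 was called, with -1.76.

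**Figure D3:**
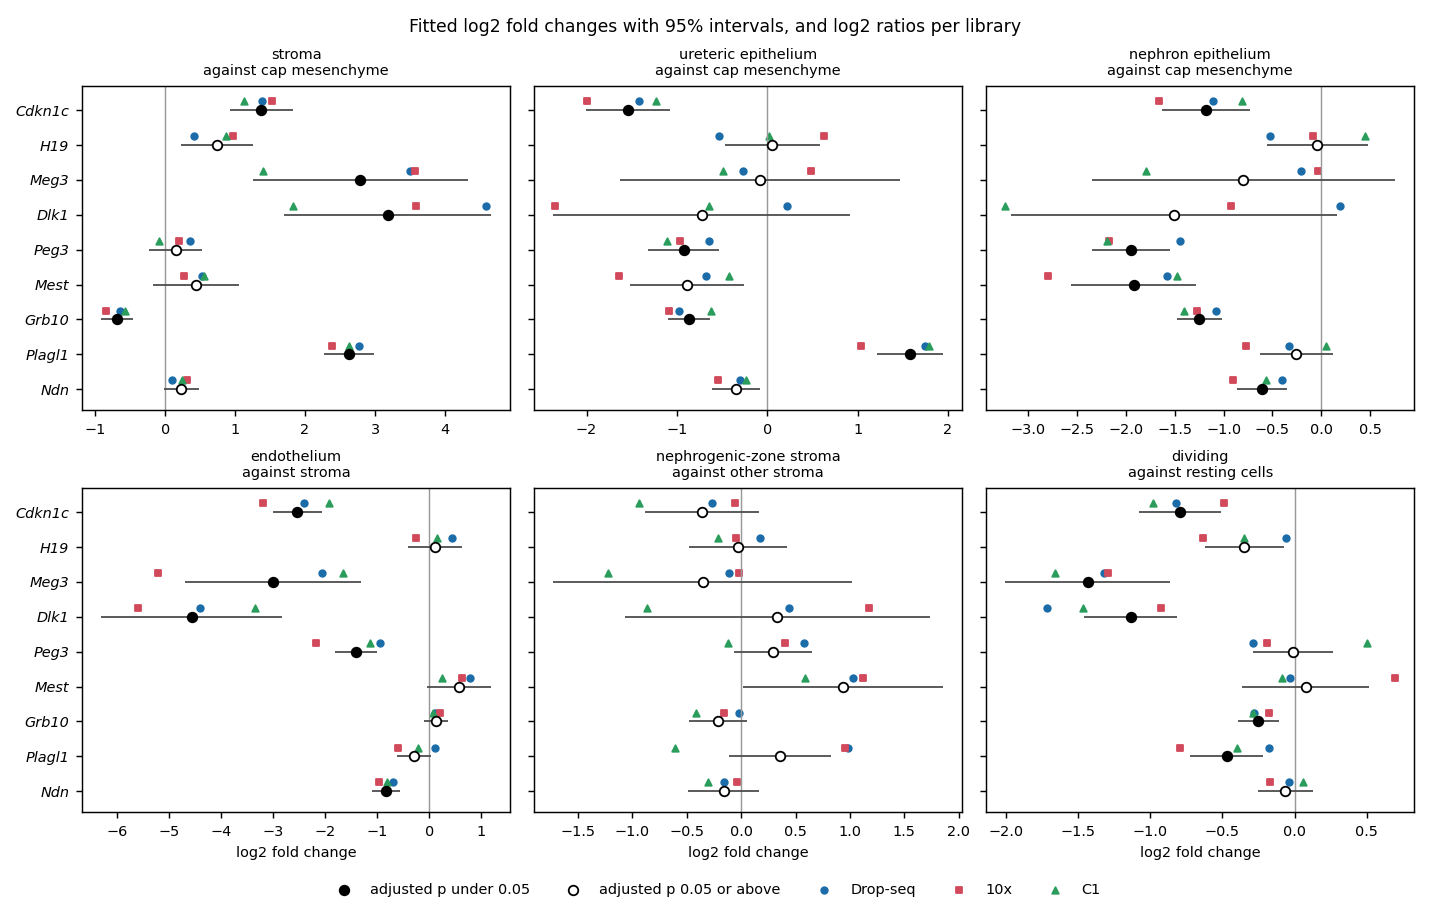
Fitted log2 fold change of each member with its 95% interval in the 6 comparisons, tested on class sums with the library as a block. Dividing against resting cells were tested on sums per state, with each class of each library as a block. Filled circles have an adjusted p under 0.05, open circles do not, and small coloured symbols are the log2 ratios of the single libraries. Plagl1 is higher in stroma and ureteric epithelium than in cap mesenchyme in all 3 libraries, and the intervals of Dlk1 and Meg3 are the widest in the 5 comparisons between classes or zones.

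Because Cdkn1c restrains the cell cycle, dividing cells were set against resting ones. Within each class and library, cells were ranked by the share of their counts from 95 S-phase and G2/M genes and split into 3 equal groups, the highest called dividing and the lowest resting. These 95 genes were left out of the test. The fit had 30 sums, a block for each class of each library and the same state effect over all classes. Classes of the same library thus enter as separate replicates, and these p-values rest on more units than the 3 libraries. In dividing cells 5 of 9 members were called, all lower, where 6.71% of 8583 genes were called lower, 13.9% higher and 20.6% in either direction. One sign in all 3 libraries was found for 6 members and 48.5% of all genes. Meg3 fell by 1.44 ± 0.27 on the log2 scale (SE, adjusted p = 0.00117), Dlk1 fell by 1.14 ± 0.16 (adjusted p = 2.58e-06) and Cdkn1c fell by 0.80 ± 0.13 (adjusted p = 0.000328, edgeR). Plagl1 fell by 0.47 ± 0.12 (adjusted p = 0.00594) and Grb10 fell by 0.25 ± 0.07 (adjusted p = 0.00945). Mest (0.08), Ndn (-0.06) and Peg3 (-0.01) had intervals across 0, and H19 had -0.35 (adjusted p = 0.069). H19 passed under 7 alternatives, DESeq2 and RLE size factors (-0.42, adjusted p = 0.0482) among them, with -0.23 to -0.46. With RLE size factors all genes split into 913 higher and 889 lower calls in place of 1191 and 576.

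Dividing cells also held more counts than resting ones, 8331.5 against 5751.5 UMIs in the median in Drop-seq cap mesenchyme and 178115 against 105135 reads in C1 stroma. The part of this depth gap, and of the many transcripts of division itself, in the falls was not tested. Cells of 1 class can also differ in their cluster. When the groups were taken within each cluster, an alternative chosen after seeing the data, the log2 fold change was -1.05 for Meg3 (adjusted p = 0.00394), -0.80 for Dlk1 (adjusted p = 0.000792) and -0.73 for Cdkn1c (adjusted p = 0.000833, edgeR). Plagl1 had -0.26 (adjusted p = 0.118) and H19 passed with -0.23 (adjusted p = 0.0183). Plagl1 also missed the threshold without 10x (-0.35, adjusted p = 0.179) and with cells split at the median in place of 3 groups (-0.31, adjusted p = 0.295). With classes named by z score, Dlk1 missed it with -0.58 (adjusted p = 0.0548) and Grb10 with -0.19 (adjusted p = 0.0593). Plagl1 missed it with the C1 name groups as 2 libraries (-0.40, adjusted p = 0.0694). Grb10 missed it without Drop-seq (-0.22, adjusted p = 0.112), and without C1 Peg3 passed with -0.24 (adjusted p = 0.0221). Among the other imprinted genes 2 rose and 10 fell, with Ampd3 (-1.85), Dcn (-1.39), Osbpl5 (-0.99), Impact (-0.68) and Zrsr1 (-0.64) lower and Trappc9 (0.63) higher. The value of Ampd3 comes mostly from C1, with a log2 ratio of -2.21 there, -0.21 in Drop-seq and -0.10 in 10x.

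Cdkn1c was lower in dividing cells in 14 of 15 pairs of class and library. Outside stroma no droplet sum of Dlk1 exceeded 28 UMIs, so its directions there are not counted. Meg3 was higher in dividing cells of 10x cap mesenchyme, with a log2 ratio of 1.08 from 109 UMIs in dividing and 38 in resting cells. In dividing against resting stromal cells, Meg3 had log2 ratios of -0.32 in Drop-seq, -1.58 in 10x and -2.19 in the C1 library. Those of Dlk1 were -0.017, -1.24 and -1.51, so in Drop-seq its levels were nearly equal. For Cdkn1c the direction was the same in stroma, endothelium, nephron epithelium and cap mesenchyme in all 3 libraries. In endothelium the fitted log2 difference was -1.42 ± 0.19 (SE), in cap mesenchyme -0.99 ± 0.17, in stroma -0.93 ± 0.17, in ureteric epithelium -0.43 ± 0.20 and in nephron epithelium -0.21 ± 0.18. In ureteric epithelium it was higher in dividing cells of 10x and lower in those of Drop-seq and C1. Whether the effect differs between classes was tested for every gene in 1 fit with a term for each class. No gene of 8583 (0.0%) passed the adjusted threshold in edgeR, while 818 had an unadjusted p under 0.05. For Cdkn1c the unadjusted p was 0.0012 and the adjusted p 0.264. By the same edgeR test H19 had an adjusted p of 0.496 and Plagl1 of 0.501. H19, Mest and Ndn had 1 class higher in all 3 libraries and another lower in all 3, a pattern of 15.6% of all genes.

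**Figure D4:**
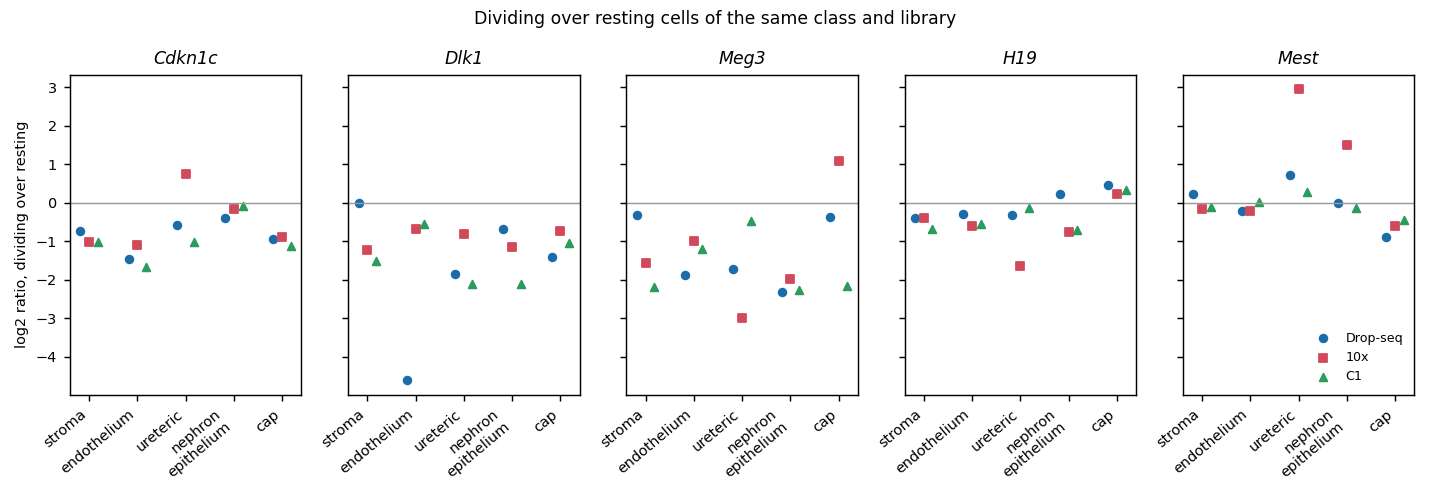
Log2 ratio of dividing over resting cells for 5 members, in each class and library. Circles are Drop-seq, squares 10x and triangles C1. Cdkn1c lies below 0 in 14 of the 15 points, H19 lies above 0 in all 3 libraries in cap mesenchyme, and the lowest Dlk1 point, in Drop-seq endothelium, rests on 0 UMIs in dividing and 3 in resting cells.

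Whether members vary together among cells of one class was measured as Pearson's r over thinned cells, on log counts, after removal of cluster means and of the total count. Cells of a library share its depth and base composition, so these values are descriptions. In stroma, 29 of the 36 member pairs were positive in all 3 libraries and 0 were negative in all 3. Among all pairs of 4307 genes found in at least 10% of stromal cells of each library, 15.1% were positive in all 3. Member pairs had a median r of 0.063 (Drop-seq), 0.0995 (10x) and 0.106 (C1), against -0.000277, -0.000121 and 0.0048 over all pairs. In nephron epithelium 12 of 15 member pairs were positive in all 3 and 0 negative. Their median r was 0.065 (Drop-seq), 0.049 (10x) and 0.12 (C1), so stroma was not alone in this. In ureteric epithelium, endothelium and cap mesenchyme a smaller part of the member pairs was positive in all 3. In ureteric epithelium 10 of 28 member pairs were positive in all 3 libraries and 3 negative, where 13.7% and 11.9% of all pairs were. Their median r was 0.0052 (Drop-seq), 0.0077 (10x) and 0.0966 (C1). In endothelium 9 of 21 member pairs were positive in all 3 and 0 negative, where 14.4% and 11.4% of all pairs were.

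In stroma as a whole, Meg3 and Dlk1 were the closest member pair. Their r in stroma was 0.368 over 357 Drop-seq cells, 0.306 over 726 10x cells and 0.362 over 368 C1 cells, and the 95th percentile of all gene pairs was 0.0922, 0.0647 and 0.099. In nephrogenic-zone stroma the pair had 0.195, 0.26 and 0.15, against 0.458, 0.34 and 0.494 in other stroma, so the value was lower in the zone in every library. The highest r of any member pair in the zone was 0.225 (Drop-seq), 0.276 (10x) and 0.232 (C1). Meg3 with Dlk1 was thus not the closest pair within the zone in any library. Dlk1 was found in 56.5% of Drop-seq stromal cells with Meg3 and in 41.2% of those without. In C1 it was found in 50.8% of those with Meg3 and 30.8% of those without, and in 10x in 55.9% and 50%, where nearly all stromal cells held Meg3. Both genes were also correlated with Plagl1, Dlk1 with r of 0.13, 0.134 and 0.288 and Meg3 with 0.174, 0.164 and 0.166 in Drop-seq, 10x and C1. The gene closest to Meg3 after Dlk1 was Col1a1 in Drop-seq (r = 0.359), and Postn was among the top 3 partners of Dlk1 in Drop-seq (0.306) and C1 (0.388). In 10x and C1, Malat1, a nuclear RNA without a protein product, was the closest gene to Meg3 in stroma, with r of 0.45 and 0.384.

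In cap mesenchyme Meg3 and Dlk1 were both found in at least 10% of the cells in C1 only, where their r was 0.563 over 163 cells and 0.375 as Spearman's rho. In the E14-named cells of that class 1 cell gave 66.3% of the Dlk1 reads and 1 cell 28.2% of the Meg3 reads. In the HT-named cells these values were 21.3% and 27.9%. After thinning, 35.2% of 108 HT-named cap mesenchyme cells held Meg3 and 18.5% Dlk1, against 38.5% and 23.1% of 39 in the immune cluster. The part of a few cells in this r was not tested. In cap mesenchyme Cdkn1c and Mest had r of 0.207 in Drop-seq (462 cells), 0.313 in 10x (199 cells) and 0.346 in C1 (163 cells). Cdkn1c and Peg3 had 0.134, 0.221 and 0.189, and Peg3 and Mest 0.14, 0.191 and 0.193. Of the 15 pairs whose genes were found in at least 10% of the cells of each library, 7 were positive in all 3 libraries and 1 was negative, H19 with Mest (-0.243, -0.0352 and -0.0414). Over all gene pairs 11.3% were negative in all 3, and in every class between 13.7% and 15.1% were positive in all 3. In stroma as a whole Cdkn1c and Mest had values of both signs, -0.0399, 0.06 and 0.0968. Within the nephrogenic zone of 10x stroma the pair had 0.276, and its zone values in Drop-seq and C1 are not given here. In nephron epithelium 12 of 15 pairs were positive in all 3 libraries, where 14.6% of all pairs were, with Peg3 and Mest (0.191, 0.217 and 0.306) and Cdkn1c and Mest (0.177, 0.188 and 0.294) the highest. The genes closest to Cdkn1c there were Meis2 (0.249), Sparc (0.249) and Pdgfra (0.469) in Drop-seq, 10x and C1. For Mest they were Fgf8 (0.272), a marker of early nephron cells, Sfrp2 (0.297) and Shisa3 (0.565). In cap mesenchyme Rspo3, a marker of nephrogenic-zone stroma, was closest to Cdkn1c in Drop-seq (0.2345) and second in 10x (0.3344). Mest itself was closest in C1. The part of stromal cells or RNA in the Cdkn1c and Mest pairs was not tested. In 10x cap mesenchyme the genes closest to Meg3 were the collagens Col1a1 (0.574) and Col1a2 (0.527), which are stromal genes, and the summed markers of other stroma were 121 CPM there, against 1834 CPM in 10x stroma.

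H19 was paired most often with its neighbour Igf2, a growth factor gene that shares its enhancers. Igf2 was the gene closest to H19 in stroma of Drop-seq (r = 0.317) and C1 (0.397), in cap mesenchyme of Drop-seq (0.304) and C1 (0.448), and in nephron epithelium of Drop-seq (0.437), 10x (0.376) and C1 (0.482). In 10x stroma it was the third, with 0.182, and in 10x cap mesenchyme it was not among the top 3.

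**Figure D5:**
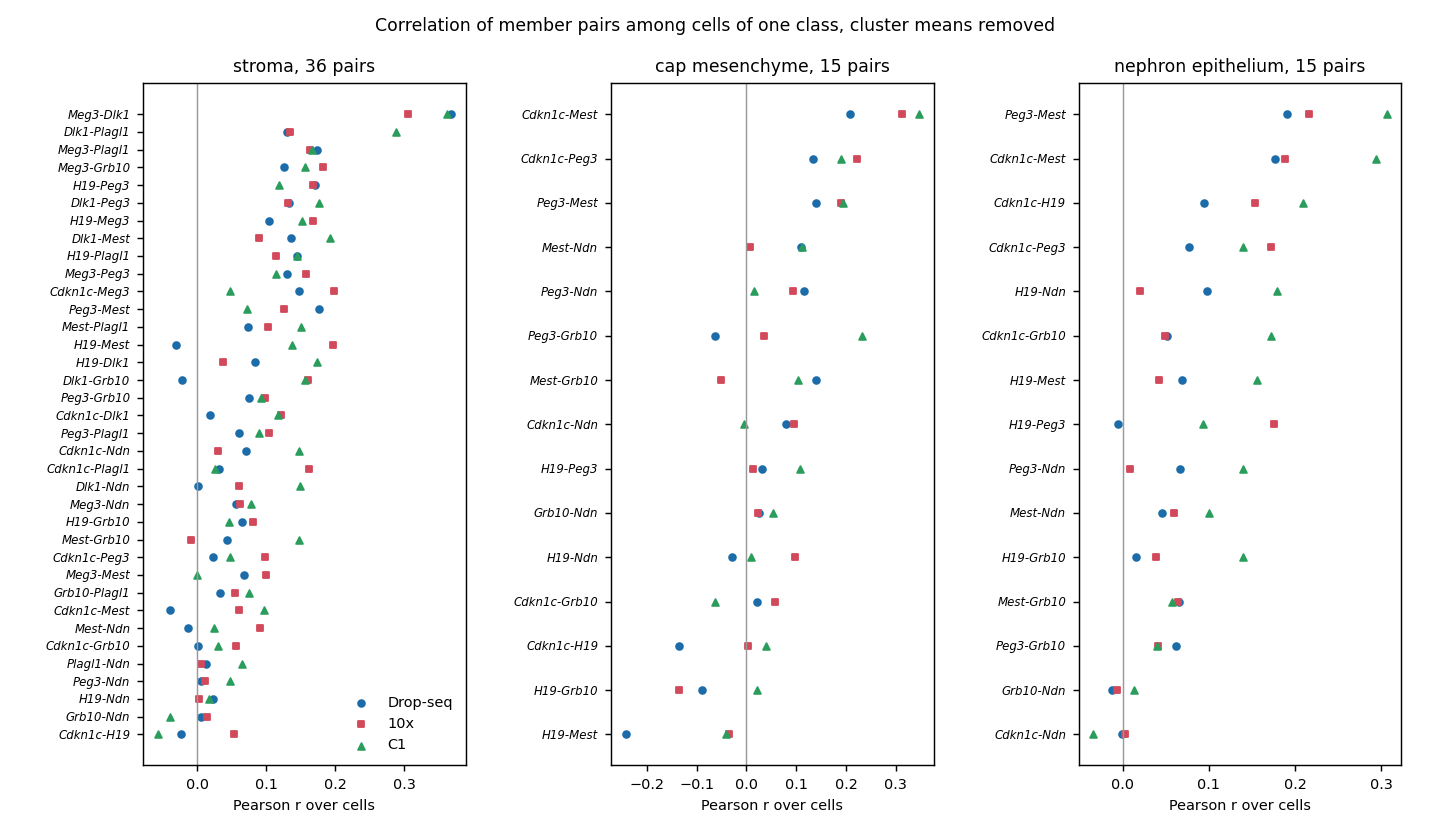
Pearson's r of member pairs over cells of stroma, cap mesenchyme and nephron epithelium, for pairs whose genes are found in at least 10% of the cells of each library. Circles are Drop-seq, squares 10x and triangles C1, and pairs are ordered by their mean. Meg3 with Dlk1 tops stroma, and Cdkn1c with Mest tops cap mesenchyme.

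Across classes rather than cells, the genes whose levels were most like each member were sought over the 15 class sums, on log2 CPM centred in each library, among 9164 genes that are no members. Here too H19 was closest to Igf2 (r = 0.92), followed by Zfp948 (0.904). Plagl1 was closest to Asb4 (0.95) and Tgfbr3 (0.94), Dlk1 to Asxl3 (0.942) and Flnc (0.932), and Meg3 to Pde1a (0.898) and Dcn (0.889). Efnb1 (0.958) was among the 2 closest to Cdkn1c. Grb10 was closest to Tcf7l1 (0.945) and Ywhag (0.919), and Mest to Gng2 (0.941) and St6galnac4 (0.938). For Peg3 they were Srpk2 (0.94) and Tnrc6c (0.939) and for Ndn Antxr1 (0.961) and Smim14 (0.931). These sums share 3 libraries and 5 classes, and with so many genes high values of r arise for every member.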

How the data were processed

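Single-cell RNA-seq of 3 libraries was used, with counts per gene and cell as deposited by the authors: UMI counts for Drop-seq and 10x, and read counts for C1. Per the submitters' processing notes, Bowtie2 2.2.7 served for Drop-seq and C1 and Cell Ranger 1.3.0 for 10x, on mm10. Total counts of kept cells were 17751488 UMIs (Drop-seq), 17455272 UMIs (10x) and 171283968 reads (C1). Cells with few detected genes (36 in Drop-seq, 43 in 10x) or a high mitochondrial share (105 in 10x) were left out, and called doublets in 10x (17) and C1 (11). The caller marked 5 Drop-seq barcodes, too few to be a working call, and none of these was removed.

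Each library was clustered alone with scanpy 1.11.5 (Leiden). Classes were named from marker lists. The members and lists were chosen with earlier results of these data known. Counts were summed per class and library (classes of at least 20 cells) and fitted with edgeR 4.0.16 in R 4.3.3, TMM scaling and the library as a block, leaving out the genes used to form or name clusters. In the test of dividing cells each class of each library was a block. DESeq2 1.42.0 was an alternative, and the fits were tested on simulated data. Shares of cells were taken after thinning. Intervals are 95% exact Poisson or binomial and cover counting error only. C1 reads carry no molecular identifiers and are not independent molecules. All 9 members are named. Of 59 other imprinted genes in all tables, up to 6 per comparison are named, those past the threshold with the largest change and one direction in every library, and for each member the 2 genes most like it over class sums. The cell names of C1 form 2 groups, of 553 and 330 kept cells, which no source used here explains.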

Additional observations from a re-analysis of the deposited data

Results flagged for a closer look

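In dividing against resting cells, H19 moved in opposite directions in different classes. The fitted log2 fold change was 0.35 ± 0.22 (SE) in cap mesenchyme, where all 3 libraries were higher in dividing cells, and -0.49 ± 0.22 in endothelium, -0.50 ± 0.21 in stroma and -0.68 ± 0.23 in ureteric epithelium, where all 3 were lower. In ureteric epithelium the log2 ratios of H19 were -0.32 (Drop-seq), -1.64 (10x) and -0.13 (C1), so that 10x stood apart. Mest had 1.06 ± 0.40 in ureteric epithelium, higher in all 3 libraries, with 0.72, 2.95 and 0.28, and 10x stood apart there too. It had -0.64 ± 0.36 in cap mesenchyme, lower in all 3. Ndn had 0.12 ± 0.18 in nephron epithelium, higher in all 3 libraries, and -0.36 ± 0.17 in stroma, lower in all 3. Of 8583 genes, 15.6% showed such opposite directions. By edgeR's quasi-likelihood test of the difference between classes, the p was 0.0401 for H19 (adjusted p = 0.496), 0.0922 for Mest (adjusted p = 0.576) and 0.058 for Ndn (adjusted p = 0.526).

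Cells outside the 5 classes compared also carried high levels. H19 reached 5334 CPM in a 10x cluster of 15 cells that was given no class, from 390 UMIs (95% interval 4818 to 5891 CPM). Endothelial markers scored highest in it, and Stmn2, Gja4 and Gja5 were among its leading genes. Its top cell gave 12.6% of the H19 UMIs. In the 10x podocytes, Cdkn1c reached 5955 CPM from 3327 UMIs (interval 5754 to 6161 CPM), which was 20.9 times the level in nephron epithelium. In Drop-seq podocytes the ratio was 6.09.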

How the results depend on the processing

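Of 54 log2 fold changes of members, 24 were called. Over the alternatives these gave 337 values, of which 290 kept direction and call, 47 missed the threshold and 0 changed sign. Those not called gave 401 values, of which 346 kept direction and side of the threshold, 29 passed it and 26 changed sign. Of 135 class levels, 69 left their counting interval as a mean of per-cell CPM, and of 135 shares of cells, 98 left theirs in unthinned cells. Members called fell to 0 in stroma against cap mesenchyme without a library block, to 1 in ureteric and 1 in nephron epithelium against cap mesenchyme, to 2 in endothelium against stroma and to 1 in dividing cells. With at least 1000 detected genes per cell they were 3, 2 and 2 in the first 3 comparisons. With no filter on low counts 1 member, Mest, was called between stromal zones. Leaving out 1 library gave 3 to 5 members in stroma, nephron epithelium and endothelium, 4 to 6 in ureteric epithelium and dividing cells, and 0 to 1 between zones. The mean r of Meg3 and Dlk1 in stroma, 0.345, was 0.26 as Spearman's rho, 0.43 with cluster means kept and 0.394 in unthinned cells. Sign changes were confined to values that were not called, and their cause was not tested. In ureteric epithelium, Meg3 had 0.12 without the block, 0.16 with classes named by z score and 0.12 with doublets kept, and without 1 library it ran from -0.33 to 0.28 and H19 from -0.27 to 0.35. In nephron epithelium, H19 had 0.18 by z score, 0.0046 at Leiden resolution 1.6 and 0.094 with the C1 name groups as 2 libraries, and from -0.34 to 0.19 without 1 library. Plagl1 had 0.31 by z score and 0.27 with no doublet removed. In endothelium, H19 ran from -0.0065 to 0.33 without 1 library. Between zones, H19 had 0.13 by z score, 0.047 with at least 1000 genes and 0.097 with no doublet removed, Plagl1 had -0.099 with C1 name groups, and Dlk1 ran from -0.14 to 0.70 without 1 library. In dividing cells, Peg3 had 0.0022 with at least 1000 genes, 0.11 with C1 name groups, and, in alternatives chosen after seeing the data, 0.0087 without the 10x cluster with no zone and 0.029 with states within clusters. It ran from -0.24 to 0.15 without 1 library. Mest had -0.036 with states split at the median, -0.069 within clusters, and from -0.084 to 0.17 without 1 library. At Leiden resolution 0.6 the zones gave no value. The block pairs classes by library, or for dividing cells states by class and library, and the fits without it are the unpaired form. The libraries could not also be paired by replicate number, because each platform is 1 library.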
